A study of Mus musculus with 4 samples.

Results

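The transcripts described here encode 4 kinases of the p38 mitogen-activated protein (MAP) kinase pathway and 6 dual-specificity phosphatases that switch MAP kinases off. The kinases are Map2k3, Mapk14, Mapkapk2 and Mapkapk3. The phosphatases are Dusp2, Dusp4, Dusp5, Dusp6, Dusp10 and Dusp16. They were chosen by gene symbol, and all 10 were found in both joint expression tables, among 15242 and 12546 tabulated genes. All 10 had at least 1 FPKM (a read count scaled by the length of the gene and by the library total) in a library of each pair.

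The cells were group 3 innate lymphoid cells (ILC3s) from the mouse small intestine, sorted as live, low for CD45, free of CD3 and high for CD90.2, among other criteria. In the first pair, 1 library came from mice deficient in IL-17D, a cytokine of the IL-17 family (Il17d-KO), and 1 from wild type (WT) mice, both at steady state. In the second pair, 1 library came from CD93+ and 1 from CD93- ILC3s, both from WT mice; CD93 is a transmembrane glycoprotein that has been described as binding IL-17D. The labels of all 4 libraries carry the same protocol, 12 h of culture of the cell suspension, with no stimulus, ahead of the CD93 sort. That text speaks of the CD93 sort only, so whether it also describes the KO and WT cells is unclear, and the sources used here do not give the age, sex and number of mice or the kind of allele. With 1 library per group there was no replicate error and no test, so every difference is one between 2 libraries. The library totals behind the scaling were 27002582 reads in KO, 26087274 in WT, 11712846 in CD93-positive and 11790580 in CD93-negative cells.

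In the p38 cascade, MAP2K3 (MKK3) phosphorylates and activates p38 alpha, the product of Mapk14. p38 alpha in turn activates MAPKAPK2 (MK2) and its close relative MAPKAPK3 (MK3), which act through the RNA-binding protein tristetraprolin to prolong the life of mRNAs with AU-rich elements, many of which encode cytokines. Dual-specificity MAP kinase phosphatases remove the activating phosphates from both the threonine and the tyrosine of a MAP kinase, and many of their genes are themselves induced by MAP kinase signalling. RNA levels do not measure the phosphorylation on which the pathway runs.

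Promoter windows of 5 members are shown because these genes differed most within a pair or, for Dusp5, had the highest level of the members in all 4 libraries. Each window runs from 250 bases before to 50 bases after the transcription start, 5′ to 3′ on the gene's strand, from RefSeq on GRCm38.p6. Windows were found for 9 of the 10 members. The windows lie at chr11:60931804-60932103 (plus strand), chr17:28691092-28691391 (plus), chr1:131097794-131098093 (minus), chr19:53528895-53529194 (plus) and chr2:127335909-127336208 (plus). Capitals mark matches on either strand to TGACG (the core of the cyclic AMP response element, which also lies within the full element TGACGTCA), TGANTCA (AP-1), the NF-kB motif, CACGTG (E-box), CCGGAA (ETS), CCAAT, and the CArG box bound by serum response factor.
Map2k3: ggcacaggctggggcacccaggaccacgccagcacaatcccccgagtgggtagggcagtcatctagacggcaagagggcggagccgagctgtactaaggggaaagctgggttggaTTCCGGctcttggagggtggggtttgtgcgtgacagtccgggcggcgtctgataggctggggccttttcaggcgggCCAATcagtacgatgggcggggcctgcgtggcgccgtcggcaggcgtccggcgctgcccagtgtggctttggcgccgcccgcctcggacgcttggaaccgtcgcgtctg
Mapk14: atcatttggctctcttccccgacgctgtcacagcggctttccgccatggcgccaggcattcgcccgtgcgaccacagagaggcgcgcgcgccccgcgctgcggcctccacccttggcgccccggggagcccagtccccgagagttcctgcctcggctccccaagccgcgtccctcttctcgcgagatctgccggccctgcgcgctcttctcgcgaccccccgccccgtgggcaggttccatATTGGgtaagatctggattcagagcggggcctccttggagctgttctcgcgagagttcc
Mapkapk2: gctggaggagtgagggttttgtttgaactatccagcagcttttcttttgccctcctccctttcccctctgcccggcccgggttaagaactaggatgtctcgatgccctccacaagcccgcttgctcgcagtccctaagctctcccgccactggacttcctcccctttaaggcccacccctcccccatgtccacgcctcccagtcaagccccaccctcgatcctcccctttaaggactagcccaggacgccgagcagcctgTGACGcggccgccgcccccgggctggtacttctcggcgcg
Dusp5: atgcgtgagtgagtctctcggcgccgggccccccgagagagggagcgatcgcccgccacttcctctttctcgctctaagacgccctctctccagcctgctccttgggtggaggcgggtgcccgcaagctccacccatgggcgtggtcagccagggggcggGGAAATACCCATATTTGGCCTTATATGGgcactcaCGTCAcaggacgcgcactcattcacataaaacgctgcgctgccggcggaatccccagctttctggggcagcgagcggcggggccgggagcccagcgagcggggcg
Dusp2: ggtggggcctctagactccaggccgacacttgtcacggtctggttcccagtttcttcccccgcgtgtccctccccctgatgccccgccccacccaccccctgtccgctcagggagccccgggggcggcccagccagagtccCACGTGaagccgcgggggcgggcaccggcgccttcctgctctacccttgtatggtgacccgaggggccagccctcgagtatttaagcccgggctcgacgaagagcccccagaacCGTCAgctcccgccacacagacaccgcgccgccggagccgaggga

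The Dusp5 window held 2 CArG boxes, an NF-kB match that overlaps the first of them by its end letters, and a TGACG match. A CArG box was present in 1.63% of the 32851 windows searched, as was an NF-kB match, and among the 9 member windows Dusp5 alone had either. TGACG was found in 5 of the 9 member windows (Mapkapk2, Mapkapk3, Dusp2, Dusp5 and Dusp16), against 20.8% of all windows, CCAAT in 5 against 37.4%, and the GC box GGGCGG, not set in capitals, in 7 against 35.7%. The CCAAT and GC box counts include Dusp10. Its RefSeq window (chr1:184034131-184034430) lies inside the gene given below, not at that gene's annotated start (184013302). Neither TGACGTCA nor TGANTCA was in any of the 9 windows, against 1.79% and 7.81% of all windows. Map2k3 had an ETS match (14.9% of all windows) and Dusp2 an E-box (7.15%). Of the 3 kinase windows shown, Map2k3 and Mapk14 had a CCAAT box in common. No motif set in capitals was in all 3, while the GC box was. These are matches of letters, and binding was not measured.

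The first comparison sets ILC3s without IL-17D beside WT ILC3s. All 4 kinase transcripts had lower values in the KO library, 3 of them by at least 2-fold, while Mapkapk3 differed little and turned slightly higher with a common sum. No phosphatase transcript differed by as much as 2-fold as deposited. Differences are log2((FPKM + 1)/(FPKM + 1)), KO over WT, and a gene was counted at 1 or more in size, which is 2-fold in FPKM + 1. A gene with a low level can be more than 2-fold apart in plain FPKM and still fall short of this limit. By this limit 3 of the 10 members were lower and 0 higher. Of all 12376 measured genes (at least 1 FPKM in either library) 29.3% were past the limit, with 12.7% of all measured genes lower and 16.6% higher. The members' 3 of 10 is near that background. The median difference of the members was -0.12 and that of all measured genes 0.01; the members' median turned positive when both libraries were scaled to a common sum.

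Map2k3 (ENSMUSG00000018932.9; mm10 chromosome 11, 60932033 to 60952811, plus strand), the upstream kinase, was at 1.23 FPKM in KO and 3.48 FPKM in WT. These values rest on 110 reads in KO and 301 in WT, recovered from FPKM and gene length. The ratio was 0.353, with a 95% exact (Clopper-Pearson) interval of 0.281 to 0.441 that covers counting error only. Its log2 difference of -1.01 lay at the limit. It was -0.99 with a median ratio of 1, -0.89 with a common sum and -0.45 with a pseudocount of 5, all short of the limit, and -1.43 with a pseudocount of 0.1.

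Mapk14 (ENSMUSG00000053436.15; chromosome 17, 28691329 to 28748406, plus strand), which encodes p38 alpha, was at 5.49 FPKM in KO and 13.6 FPKM in WT. The ratio was 0.403 and the log2 difference -1.17, which was -0.83 with a pseudocount of 5 and then short of the limit. Whole reads could not be recovered for it in this pair with the gene length used, so no counting interval is given.

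Mapkapk2 (ENSMUSG00000016528.10; chromosome 1, 131053700 to 131097826, minus strand) was farthest apart of the 10, at 3.85 FPKM in KO and 15.9 FPKM in WT. It had 316 reads in KO and 1265 in WT, a ratio of 0.241 (0.213 to 0.273) and a log2 difference of -1.81. It was past the 2-fold limit under every pseudocount and scaling tried. Mapkapk3 (ENSMUSG00000032577.16; chromosome 9, 107254927 to 107289877, minus strand) was at 8.23 FPKM in KO and 8.97 FPKM in WT, a ratio of 0.918 (0.848 to 0.993), and its direction turned with the common sum. The paired kinases thus changed places. The ratio of Mapkapk2 to Mapkapk3 was 0.467 (0.412 to 0.529) in KO and 1.78 (1.64 to 1.92) in WT, a quantity that does not depend on the scaling to library size.

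Differences of 2-fold were common among genes with few reads. Map2k3 fell in the class of 100 to 1000 reads summed over both libraries, in which 40.8% of measured genes were at least 2-fold apart. Mapkapk2 fell in the class of 1000 to 10000 reads, in which 13.5% were. In genes with at least 10000 reads this share was 4.39%. The counting intervals of Map2k3 and Mapkapk2 hold no part of the variation between mice, sorts or library preparations.

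**Figure D1:**
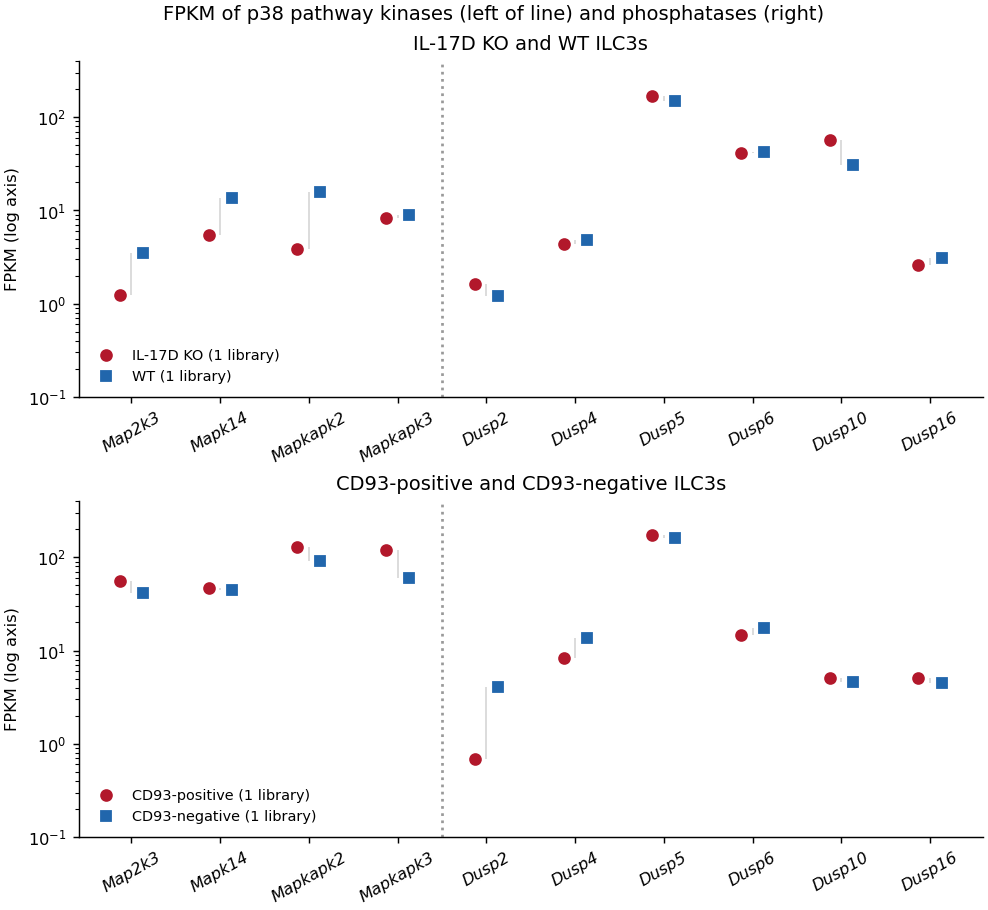
FPKM (log axis) of the 10 members in each of the 4 libraries, with kinases left of the dotted line and phosphatases right of it. Each point is 1 library, with no error bar; red circles are KO or CD93-positive, blue squares WT or CD93-negative. Map2k3, Mapk14 and Mapkapk2 lie lower in KO than in WT, and Dusp2 lies lower in CD93-positive (0.682) than in CD93-negative ILC3s (4.11). Levels are not comparable between the panels.

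Among the phosphatases, Dusp5, which encodes a nuclear phosphatase specific for ERK, was the most abundant. Dusp5 (ENSMUSG00000034765.6; chromosome 19, 53529109 to 53542431, plus strand) was at 169 FPKM in KO and 149 FPKM in WT, a ratio of 1.14 (1.11 to 1.17). Its exons overlap those of an annotated gene on the opposite strand, AC137853.2, and the labels do not tell whether the counting used strand, so the reads of these genes cannot be told apart. Dusp6 (ENSMUSG00000019960.8; chromosome 10, 99263231 to 99267489, plus strand), a cytoplasmic ERK phosphatase, was at 41.4 FPKM in KO and 42.0 FPKM in WT, with an interval of the ratio of 0.940 to 1.03. The ERK-specific phosphatases thus lay close together in the 2 libraries, and the direction of Dusp6 turned with either other scaling.

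Dusp10 and Dusp16 encode phosphatases that act on p38 and JNK, and they differed from each other. Dusp10 (ENSMUSG00000039384.8; chromosome 1, 184013302 to 184075636, plus strand) was higher, at 57.1 FPKM in KO and 30.5 FPKM in WT (4694 and 2418 reads). The ratio was 1.88 (1.79 to 1.97) and the log2 difference 0.89, which reached 1.05 with the common sum. Dusp16 (ENSMUSG00000030203.17; chromosome 6, 134715468 to 134792625, minus strand) was at 2.61 FPKM in KO and 3.11 FPKM in WT, a ratio of 0.839 (0.747 to 0.943). Dusp10 was thus 21.9 times as high as Dusp16 in KO (20.02 to 23.9) and 9.79 times in WT (8.97 to 10.7).

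Dusp4 (ENSMUSG00000031530.6; chromosome 8, 34807297 to 34819894, plus strand), a nuclear phosphatase of ERK, JNK and p38, was at 4.35 FPKM in KO and 4.87 FPKM in WT. Dusp2 (ENSMUSG00000027368.6; chromosome 2, 127336159 to 127338376, plus strand), a nuclear phosphatase first known from activated lymphocytes, was at 1.61 FPKM in KO and 1.21 FPKM in WT, from 87 and 63 reads. The counting intervals of both ratios held 1 (0.766 to 1.04 for Dusp4 and 0.954 to 1.88 for Dusp2), and the direction of Dusp4 turned with a common sum.

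Within the KO library the order of levels ran Dusp5, Dusp10, Dusp6, Mapkapk3, Mapk14, Dusp4, Mapkapk2, Dusp16, Dusp2, Map2k3. In WT it ran Dusp5, Dusp6, Dusp10, Mapkapk2, Mapk14, Mapkapk3, Dusp4, Map2k3, Dusp16, Dusp2. Counting error could not separate Dusp4 from Mapkapk2 or Dusp2 from Map2k3 in KO, nor Map2k3 from Dusp16 in WT; neighbours that include Mapk14 have no interval. The 6 phosphatases summed to 276 FPKM in KO and 230 FPKM in WT, and the 4 kinases to 18.8 FPKM in KO and 42.0 FPKM in WT. The phosphatase sum was 14.7 times the kinase sum in KO and 5.48 times in WT.

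**Figure D2:**
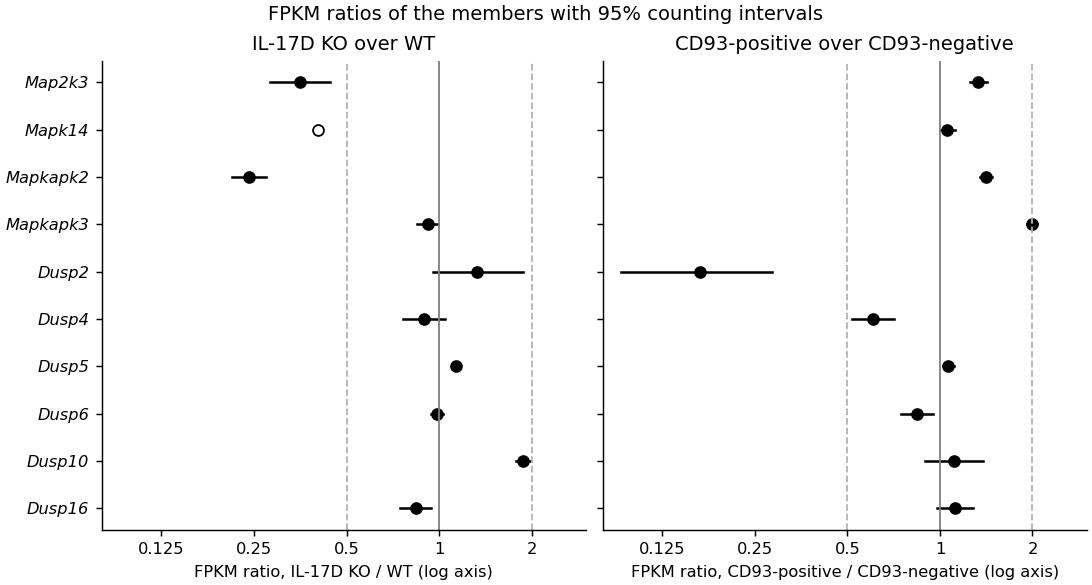
FPKM ratios of the 10 members, KO over WT on the left and CD93-positive over CD93-negative on the right, on a log axis. Points are ratios of 2 libraries and lines 95% exact counting intervals, with no replicate error in them; the open point (Mapk14, KO over WT) has no interval, and dashed lines mark 2-fold. Mapkapk2 (0.241), Map2k3 (0.353) and, in the CD93 pair, Dusp2 (0.166) have intervals wholly beyond 2-fold.

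Dusp1, which encodes the inducible nuclear phosphatase of p38 and JNK and is no member, dominated the family in this pair. It was at 1671 FPKM in KO and 910 FPKM in WT, a log2 difference of 0.88. It made up 85.8% of the summed FPKM of 8 tabulated MAP kinase phosphatases in KO and 79.8% in WT. Dusp5 held 8.67% in KO and 13.0% in WT, and Dusp10 2.94% in KO and 2.67% in WT. Without Dusp1 the share of Dusp10 was 20.7% in KO and 13.2% in WT.

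**Figure D3:**
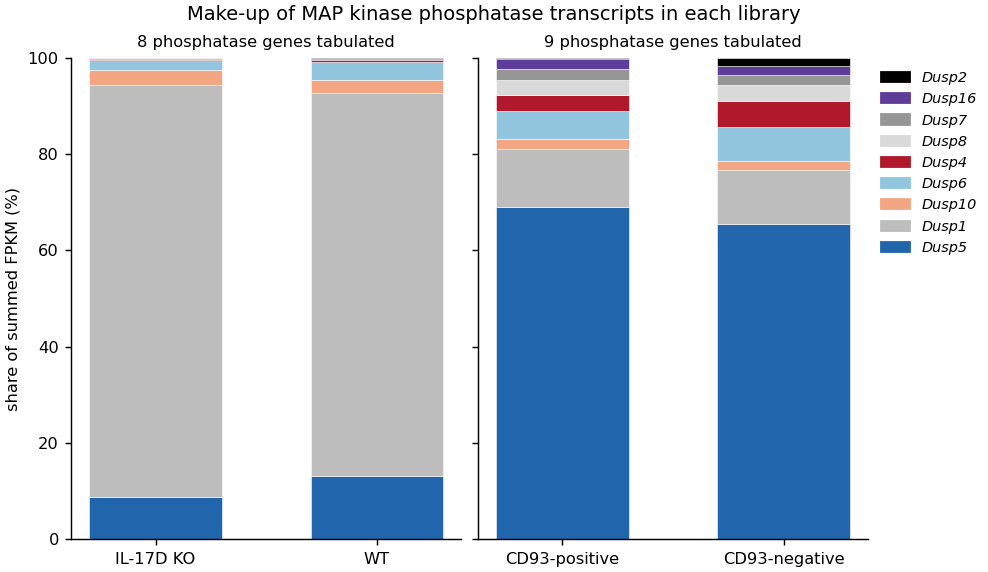
Share of each MAP kinase phosphatase gene in the family's summed FPKM (%), in KO and WT on the left and CD93-positive and CD93-negative ILC3s on the right. Each bar is 1 library, and 8 genes were tabulated in the first pair and 9 in the second. Dusp1 takes 85.8% in KO and 79.8% in WT; Dusp5 takes 69.1% in CD93-positive and 65.4% in CD93-negative cells. Gene sets differ between the panels, so bars are compared within a panel.

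The other genes of the p38 pathway had values on both sides, 15 of 26 measured genes higher and 11 lower by any amount. Of the 26 measured genes other than the members, 2 were past the limit on log2(FPKM + 1) and higher, Map2k6 and Tab3, and 1 lower, Gadd45a, with a median difference of 0.06. Map2k6, which encodes MKK6, the other main activator of p38, was at 5.33 FPKM in KO and 0.0445 FPKM in WT (496 and 4 reads), the opposite direction from Map2k3; it counted as measured only through its level in KO. Map2k3 was 0.230 times Map2k6 in KO (0.186 to 0.284) and 78.2 times in WT (30.2 to 289). Map2k4, a kinase that activates JNK and p38, had 8.51 in KO and 4.95 in WT.

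Gadd45a, whose stress-induced product binds the p38-pathway kinase MAP3K4, was at 2.77 FPKM in KO and 19.2 FPKM in WT, a ratio of 0.144 (0.119 to 0.174). Its relative Gadd45b had 244 in KO and 237 in WT. Tab3, an adaptor of the kinase TAK1, had 2.69 in KO and 0.508 in WT, and counted as measured only through KO. Downstream of p38, 0 of 11 measured genes other than the members were past the limit on log2(FPKM + 1). By plain FPKM ratio, KO over WT, Creb1 (0.434) was more than 2-fold lower and Mknk1 (2.35) more than 2-fold higher. Mknk1 counted as measured only through its level in KO. Zfp36, which encodes tristetraprolin, had 85.1 in KO and 73.8 in WT.

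Lists of related pathways went both ways, with genes counted by the same limit on log2(FPKM + 1). Of 6 measured atypical dual-specificity phosphatases, Dusp28 was higher (1.94 FPKM in KO and 0.408 in WT), and Dusp11, an RNA phosphatase (1.92 and 9.67), and Dusp19 (0.730 and 3.47) were lower, with a list median of -0.08. Of 7 other phosphatases of MAP kinases, 1 was lower, Ppp2cb, a catalytic subunit of protein phosphatase PP2A (5.19 in KO and 19.7 in WT; median 0.11). Of 8 JNK pathway genes, Map2k7, the JNK kinase MKK7 (5.02 in KO and 1.04 in WT), and Map4k1 (1.46 and 0.112) were past the limit and higher, and 0 lower, with a median of 0.41. By plain FPKM ratio, Mapk8 (1.08 in KO and 2.49 in WT) was more than 2-fold lower and Mapk10 (1.85 and 0.875) more than 2-fold higher. Dusp28, Map4k1 and Mapk10 counted as measured only through their levels in KO, and Dusp19 only through WT.

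In the ERK pathway, 4 of 14 measured genes were higher and 2 lower by the same limit, with a median of 0.07. The higher genes were Map2k5 (3.36 FPKM in KO and 0.603 in WT), the RAF scaffold Shoc2 (25.1 and 9.17), the ERK kinase Map2k1 (13.7 and 5.13) and Araf (15.7 and 6.65). Rps6ka1, the ribosomal S6 kinase RSK1, was among the lower genes (0.931 in KO and 8.66 in WT). Map2k5 counted as measured only through its level in KO, and Rps6ka1 only through WT. Of 13 ERK feedback genes and targets, Myc was higher (29.1 in KO and 12.3 in WT) and 3 were lower, with a median of -0.20. The 3 lower genes were the pathway inhibitors Spry1 (0 in KO and 2.27 in WT) and Spred1 (0.0819 and 1.77) and the AP-1 gene Fosl1 (0 and 1.53). They counted as measured only through their levels in WT. Of 11 transcripts with AU-rich elements, 1 was higher, Il1b (2.95 in KO and 0.784 in WT), and 2 lower, Il10 (0 and 1.78) and Il6 (0 and 1.66), with a median of 0.16. Il1b counted as measured only through its level in KO, and Il10 and Il6 only through WT.

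**Figure D4:**
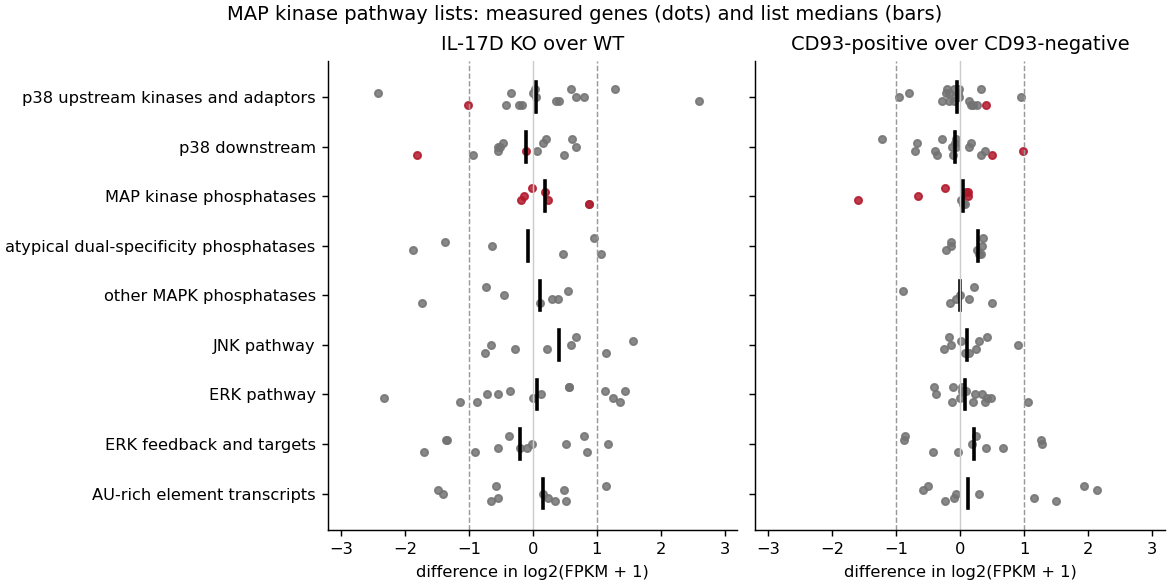
Differences in log2(FPKM + 1) of the measured genes of 9 MAP kinase lists, KO over WT on the left and CD93-positive over CD93-negative on the right. Each dot is 1 gene, red for members and grey for others (Mapk14 is in none of these lists); black bars are list medians and dashed lines mark 2-fold. Dots are spread more widely in KO over WT, where 29.3% of all measured genes were past 2-fold, than in the CD93 pair, where 4.43% were.

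Markers of other cells moved with the KO library, here counted by the same limit on log2(FPKM + 1). All 6 exocrine pancreas genes were higher in KO, with sums of 1041 FPKM in KO and 0.235 FPKM in WT, and 5 of them were at 0 in WT. Of the measured genes, 6 of 8 T cell markers (sums of 281 FPKM in KO and 137 FPKM in WT), 4 of 5 epithelial (176 and 48.4), 3 of 3 macrophage or monocyte (59.1 and 11.8), 2 of 4 B cell (241 and 129) and 3 of 7 ILC1 or NK cell markers (1155 and 750) were at least 2-fold higher and 0 lower. By plain FPKM ratio the T cell marker Cd8a (0.631 in KO and 1.47 in WT) was more than 2-fold lower. Of 3 ILC2 markers 1 was higher, the 1 measured fibroblast marker was lower and the 1 endothelial marker was under 2-fold. The pancreas genes and Cd3e, Cd8b1, Krt8, Krt18, Cd68, Cd14, Cd79a and Klrd1 counted as measured only through their levels in KO. Cd8a and the fibroblast marker, Lum, did so only through WT. The filter thus fixed the direction of all these genes. All 10 ILC3 markers, among them Il22, were above 0 in all 4 libraries, and in this pair 0 were 2-fold apart (summed FPKM 12857.5 in KO and 17189 in WT). Of 15 heat shock and immediate early genes 3 were lower, Hspa1b, Dnajb1 and Hspa1a. The part of these differences in the values of the members was not tested. In bulk samples fewer cells of a type and less RNA per cell cannot be told apart.

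The second comparison sets CD93+ beside CD93- ILC3s of WT mice. All 4 kinase transcripts had higher values in CD93-positive cells, each by 2-fold or less, except that Mapk14 turned slightly lower with a common sum. Of the phosphatases, Dusp2, Dusp4 and Dusp6 had lower values. By the 2-fold limit on log2(FPKM + 1), 1 of the 10 members was lower, Dusp2, and 0 were higher. Dusp2 counted as measured only through its level in CD93-negative cells. Of all 10117 measured genes 4.43% were past the limit, 2.49% of the measured genes higher and 1.94% lower, and with 10 members a single gene is little to set against this. The median difference of the members was 0.11 and that of all measured genes 0.04.

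Mapkapk3 was the farthest apart of the kinases, at 119 FPKM in CD93-positive and 59.5 FPKM in CD93-negative cells, from 7702 and 3888 reads. The ratio was 1.99 (1.92 to 2.07), and the log2 difference of 0.98 lay just under the limit; it was 0.81 with a common sum. Mapkapk2 had 129 in CD93-positive and 91.4 in CD93-negative cells, a ratio of 1.41 (1.35 to 1.48). The ratio of Mapkapk2 to Mapkapk3 was 1.09 (1.05 to 1.13) in CD93-positive and 1.54 (1.47 to 1.61) in CD93-negative cells. So the balance of these related kinases lay nearer to even in CD93-positive cells, whatever the scaling.

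Map2k3 was at 55.0 FPKM in CD93-positive and 41.3 FPKM in CD93-negative cells, a ratio of 1.33 (1.25 to 1.42). Mapk14 had 47.0 and 44.5 in the same order, a ratio of 1.06 with an interval that held 1 (0.998 to 1.12). Relative to Mapk14 in its own library, Map2k3 was at 1.17 (1.10 to 1.24) in CD93-positive and 0.928 (0.871 to 0.990) in CD93-negative cells. Mapkapk3 was at 2.53 (2.41 to 2.64) in CD93-positive and 1.34 (1.27 to 1.41) in CD93-negative cells on the same scale.

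**Figure D5:**
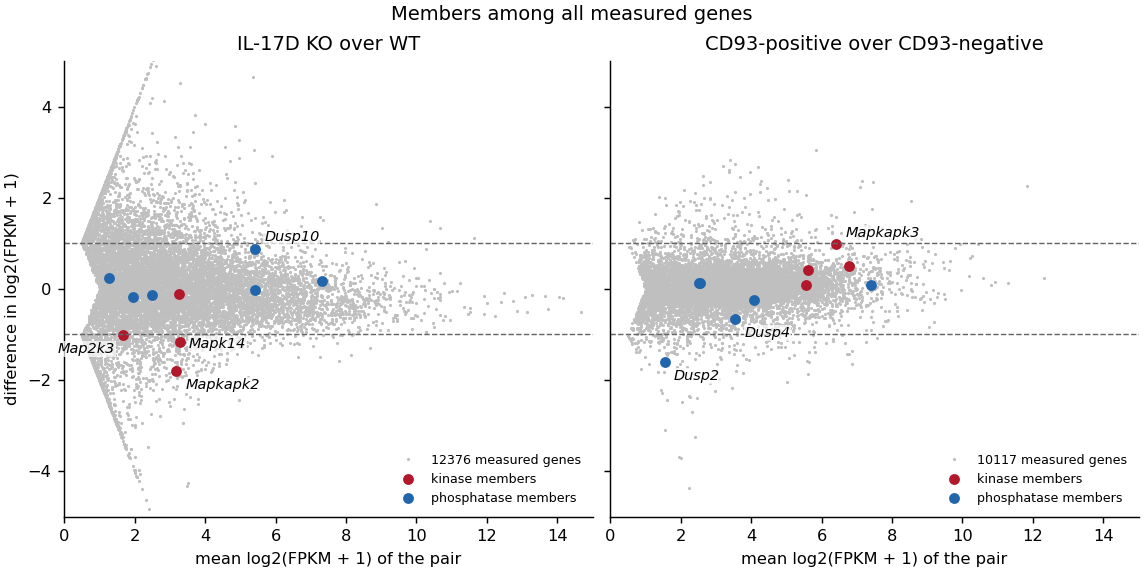
Difference in log2(FPKM + 1) against the mean log2(FPKM + 1) of the pair for all measured genes (grey), with the kinase members in red and the phosphatase members in blue. Dashed lines mark 2-fold. Mapkapk2, Mapk14 and Map2k3 lie at or below the lower line in KO over WT, and Dusp2 lies below it in the CD93 pair; 30 genes of KO over WT and 0 of the CD93 pair lie outside the plotted range.

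Dusp2 was lower in CD93-positive cells, with an FPKM of 0.682 there and 4.11 in CD93-negative cells. It had 16 reads in CD93-positive and 97 in CD93-negative cells, a ratio of 0.166 (0.0913 to 0.283) and a log2 difference of -1.60. Of the genes with 100 to 1000 reads over this pair 4.55% were at least 2-fold apart. With a pseudocount of 5 the difference was -0.68, under the limit. Dusp4 was at 8.32 FPKM in CD93-positive and 13.7 FPKM in CD93-negative cells, a ratio of 0.605 (0.518 to 0.706). Dusp2 was 0.0820 times Dusp4 in CD93-positive (0.0462 to 0.136) and 0.299 times in CD93-negative cells (0.237 to 0.373).

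The ERK-specific phosphatases differed little. Dusp5 was at 172 FPKM in CD93-positive and 162 FPKM in CD93-negative cells, a ratio of 1.07 (1.02 to 1.11) whose direction turned with a common sum. Dusp6 had 14.5 in CD93-positive and 17.2 in CD93-negative cells, a ratio of 0.842 (0.749 to 0.946). Dusp10 had 5.11 and 4.60 in the same order and Dusp16 5.04 and 4.51, with intervals of the ratios that held 1 (0.894 to 1.38 and 0.975 to 1.28); both turned with a common sum. In both libraries these p38 and JNK phosphatases were at nearly equal levels, Dusp10 being 1.01 times Dusp16 in CD93-positive (0.8495 to 1.21) and 1.02 times in CD93-negative cells (0.846 to 1.22).

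Within CD93-positive cells the order of levels ran Dusp5, Mapkapk2, Mapkapk3, Map2k3, Mapk14, Dusp6, Dusp4, Dusp10, Dusp16, Dusp2. In CD93-negative cells Mapk14 stood above Map2k3 and the rest of the order was the same. Counting error could not separate Dusp10 from Dusp16 in either library, nor Dusp16 from Dusp2 in CD93-negative cells. The phosphatases summed to 206.1 FPKM in CD93-positive and 206.0 FPKM in CD93-negative cells, and the kinases to 350 FPKM in CD93-positive and 237 FPKM in CD93-negative cells. The phosphatase sum was 0.589 times the kinase sum in CD93-positive and 0.871 times in CD93-negative cells. Dusp5 made up 69.1% of the 9 tabulated MAP kinase phosphatases in CD93-positive and 65.4% in CD93-negative cells, and Dusp1 11.9% and 11.4%.

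Other p38 pathway genes had mostly small differences. Of 34 measured genes other than the members, 0 were past the limit on log2(FPKM + 1) and higher. Past it and lower was 1, the small heat shock gene Hspb1 (4.14 FPKM in CD93-positive and 11.0 in CD93-negative cells), and the median was -0.08. By plain FPKM ratio Map3k6 (1.98 and 0.534 in the same order) was more than 2-fold higher, and it counted as measured only through CD93-positive cells. Gadd45a had 38.7 in CD93-positive and 75.6 in CD93-negative cells and Gadd45b 69.6 and 122, both under the limit. Map2k6 was low in both, with 0.347 in CD93-positive and 0.542 in CD93-negative cells, as was Mapk11, which encodes p38 beta (0.266 and 0.323). Map2k4 had 16.3 and 18.6 in the same order, and Dusp1 29.7 and 28.1. Zfp36 had 13.3 in CD93-positive and 17.9 in CD93-negative cells.

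In the lists of atypical dual-specificity phosphatases (8 measured, median 0.28), other MAP kinase phosphatases (7, median -0.0013) and the JNK pathway (10, median 0.11), 0 genes were past the limit on log2(FPKM + 1). By plain FPKM ratio the JNK pathway gene Mapk10 (2.69 in CD93-positive and 0.961 in CD93-negative cells) was more than 2-fold higher. Mapk10 counted as measured only through CD93-positive cells. Of 16 ERK pathway genes 1 was higher, the scaffold gene Ksr1 (17.6 in CD93-positive and 7.93 in CD93-negative cells; median 0.07). Of 10 ERK feedback genes and targets 2 were higher and 0 lower (median 0.22), the ETS transcription factor gene Etv5 (7.39 in CD93-positive and 2.46 in CD93-negative cells) and Phlda1 (54.6 and 22.0). Of 10 transcripts with AU-rich elements 4 were higher and 0 lower (median 0.12), the cytokine and growth factor genes Lif (81.7 and 17.7), Vegfa (719 and 188), Tnf (59.1 and 20.2) and Csf2 (214 and 95.9).

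Marker genes moved with the sort as well, and are counted here by the same limit on log2(FPKM + 1). Of 7 measured ILC1 or NK cell markers 5 were lower in CD93-positive cells and 0 higher, with sums of 60.03 FPKM in CD93-positive and 182 FPKM in CD93-negative cells. Of 10 ILC3 markers 2 were higher, Il22 among them (list sums 9439 and 2643), and of 3 T cell markers Cd3g and Cd3d were lower (list sums 2.74 and 9.94). Of 3 epithelial markers 1 was lower, Epcam (list sums 19.0 and 33.8), as was 1 of 4 ILC2 markers, Il17rb (9.37 and 17.5). The 1 measured fibroblast marker, Lum, was higher (list sums 11.5 and 4.27), and 0 were past the limit among the B cell, macrophage or monocyte, endothelial and pancreas lists. By plain FPKM ratio Cd3e, Cd79b, Cdh5 and Il1rl1 were also more than 2-fold lower, and Il1r1 more than 2-fold higher. Cd3d, Cdh5, Il1rl1 and the NK cell marker Klrb1c, which was among the lower genes, counted as measured only through CD93-negative cells. The filter thus fixed their direction. The pancreas list summed to 129 FPKM in CD93-positive and 196 FPKM in CD93-negative cells, with all 5 measured genes lower in CD93-positive cells. Of 15 heat shock and immediate early genes 3 were lower in CD93-positive cells, Hspa1b, Hspa1a and Btg2. The part of these differences in the values of Dusp2 and Dusp4 was not tested.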

How the data were processed

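RNA from 4 libraries of mouse small intestinal ILC3s was read on a BGISEQ-500 instrument, per the labels. The deposited values are FPKM made by the authors. The submitters' processing notes name Bowtie2, featureCounts (Subread), edgeR, DESeq2 and the build mm10; the sources used here do not give their order, settings, versions or gene annotation. Values of the joint tables equalled those of the single-library tables in all rows. The tables of the 2 pairs hold different genes, so levels were compared within a pair.

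Reads were recovered as FPKM times union exon length (GENCODE M21), and came out whole, to within 0.02 reads, for 92.1% of KO, 91.9% of WT, 98.1% of CD93-positive and 98.2% of CD93-negative values above 0 with a length. The totals behind the scaling were 27002582, 26087274, 11712846 and 11790580 in the same order, and need not equal the reads sequenced. The steps were tested on simulated data. Intervals are 95% Clopper-Pearson (scipy 1.17.1); reads copied by PCR and counted with no molecular identifiers are not independent, and the intervals hold counting error only.

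Differences are log2 of FPKM + 1, which understates those of low genes. A gene under 1 FPKM in 1 library of a pair counted as measured only through the other, so the filter fixed its direction. The members and lists were chosen with earlier results of these data known. All members are named; of the lists, at most the 6 genes farthest past 2-fold, the other p38 kinases, their MAP2Ks and Dusp1 are named by rule, and Gadd45a, Gadd45b and Zfp36 were also named where they fell outside it, after their values were seen. Mapk12 and Mapk13 were not analysed here, nor was Il17d, so the genotype label was not checked. Single values of some list genes are not reported here. Alternatives were pseudocounts of 0.1 and 5, no filter on low values, a filter at 5 FPKM, 2 other scalings (to a common summed FPKM and to a median ratio of 1) and a limit of 3-fold.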

Additional observations from a re-analysis of the deposited data

How the results depend on the processing

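In KO over WT, the number of members past the limit was 3 as reported, 1 with a pseudocount of 5 and 1 with a 3-fold limit, Mapkapk2 in both cases. It was 2, Mapkapk2 and Mapk14, with a median ratio of 1, and the same 2 of the 6 members left when 5 FPKM was required. With a common sum it stayed 3, with Dusp10 higher in place of Map2k3 lower. The median of the members was then 0.026, against -0.12 as deposited, while the median of all genes moved to 0.17 from 0.01. In the CD93 pair, the number was 1 as reported, 0 with a pseudocount of 5 and 0 when 5 FPKM was required in either library, which leaves out Dusp2. With a common sum the median of the members was -0.052, against 0.11, and that of all genes -0.12, against 0.04. These turns came with the common sum, which moved all 10 members of a pair in the same direction but by unequal amounts. Over the pseudocounts and scalings, 7 of 10 members kept their sign in KO over WT, without Mapkapk3, Dusp4 and Dusp6, and 6 of 10 in the CD93 pair, without Mapk14, Dusp5, Dusp10 and Dusp16. All genes past the limit numbered 3627 in KO over WT as reported and 821 with a pseudocount of 5, 1519 when 5 FPKM was required and 1556 with a 3-fold limit. In the CD93 pair they numbered 448, and 783 with a pseudocount of 0.1, 169 with one of 5 and 110 with a 3-fold limit. Scaled to a common sum, 173 of these genes were higher and 296 lower, against 252 and 196 as deposited, and in KO over WT 2387 higher and 1352 lower, against 2058 and 1569. No paired analysis was possible because each group had 1 library. For the same reason no replicate could be left out. Low reads limit Dusp2 in both pairs and Map2k3 in KO over WT.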
